A study of Homo sapiens with 22 samples.

Results

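The 10 genes described here, ATF4, DDIT3, ASNS, TRIB3, CHAC1, DDIT4, SESN2, PSAT1, PHGDH and XBP1, belong to the integrated stress response, the unfolded protein response and serine synthesis. They were chosen by symbol, with earlier results of these data known, and are 10 of the 60675 genes in the count table. Each was found under 1 identifier and passed the filter on low counts in every comparison. RNA-seq was performed on HT1080 cells, an established human fibrosarcoma cell line, in 22 libraries of 6 groups. The first groups hold 4 libraries each: unmodified, untreated wild-type (WT) cells, and cell lines in which CRISPR/Cas9 changed 1 active-site histidine to alanine in an endogenous lysine deacetylase gene. KDAC6H216A carries that change in catalytic domain 1 of KDAC6 (HDAC6), KDAC6H611A in its catalytic domain 2, and KDAC8H143A in the catalytic domain of KDAC8 (HDAC8). The other groups hold 3 libraries each of WT cells exposed for 2 days to 1 µM Tubastatin A, described as a KDAC6 inhibitor, or to 5 µM PCI-34051, described as a KDAC8 inhibitor. KDAC6H216A cells were a pool of 3 independently derived lines, whereas for the other mutants no pooling was described, and a line grown from 1 colony also carries whatever else distinguished its founding cell. Libraries were described as biological replicates. No vehicle-treated library is among the samples, and the inhibitors were compared with untreated WT cells.

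In the integrated stress response, kinases that sense unfolded protein, amino acid shortage or other stress phosphorylate the initiation factor eIF2. General translation then falls while translation of ATF4 mRNA increases, so that much of the control of ATF4 lies outside the level of its mRNA. ATF4 protein activates genes of amino acid supply and redox balance, among them ASNS, CHAC1, TRIB3, DDIT4, SESN2, PSAT1 and PHGDH, and, under lasting stress, DDIT3 (CHOP). In the endoplasmic reticulum (ER), XBP1 and ATF6 form separate branches that raise chaperones and the machinery that removes misfolded proteins. The XBP1 branch depends on unconventional splicing of XBP1 mRNA by IRE1, which a count per gene does not show.

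Because ATF4 and the ER stress factors bind short known elements near the start of their targets, the 250 bases before each RefSeq transcription start of the 10 genes (GRCh38.p14; 10 of 10 matched) were searched on both strands for 3 letter patterns. These were TGATGNAA, the C/EBP-ATF response element (CARE) bound by ATF4, CCAAT followed after any 9 bases by CCACG, the ER stress element (ERSE), and TGACGTGG, a core of the unfolded protein response element (UPRE). The patterns occurred in 3.15%, 0.0741% and 0.613% of 35093 such windows over all genes, respectively. Among the 10 genes, ASNS and CHAC1 held the CARE pattern and XBP1 held the ERSE pattern. The stretches with the match in capitals are shown, all written 5′ to 3′ on the gene's strand, with 30 bases around the matches of ASNS and CHAC1, which lie within exons of other annotated transcripts of those genes. The ASNS stretch lies at chr7:97872458-97872487 (minus strand), that of CHAC1 at chr15:40953251-40953280 (plus strand) and that of XBP1 at chr22:28800598-28800682 (minus strand). DDIT4, the gene with the largest rises of the 10, held none of the patterns in this window, and the part of it free of annotated exons, chr10:72273705-72273918 (plus strand), is shown for comparison.
ASNS: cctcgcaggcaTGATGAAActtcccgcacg
CHAC1: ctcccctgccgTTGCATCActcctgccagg
XBP1: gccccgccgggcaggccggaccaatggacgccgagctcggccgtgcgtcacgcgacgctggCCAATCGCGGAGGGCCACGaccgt
DDIT4: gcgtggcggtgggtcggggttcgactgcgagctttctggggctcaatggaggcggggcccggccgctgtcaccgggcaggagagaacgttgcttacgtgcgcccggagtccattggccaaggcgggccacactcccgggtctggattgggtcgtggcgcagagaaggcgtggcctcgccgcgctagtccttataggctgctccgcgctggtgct
Counted from the start site, the ASNS match ran from base -68 to -61, the CHAC1 match, on the minus strand of the gene, from -209 to -202, and the XBP1 match from -52 to -34. A match is a run of letters and not a measured binding site, and factor binding was not measured in these libraries.

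Library totals differed between the groups, from 5248960 to 12752476 expected counts in the libraries of WT, KDAC6H216A and KDAC6H611A, from 11010779 to 17170493 in KDAC8H143A and from 24315844 to 29862658 with the inhibitors. The lowest count of any of the 10 genes in a library was 59, for DDIT3. Mitochondrial rRNA took 20.8% to 23.9% of the counts in WT cells but at most 0.0259% in each library of KDAC8H143A, Tubastatin A and PCI-34051. Within the KDAC6 mutants, KDAC6H216A replicate 1 (0.195%) and KDAC6H611A replicate 4 (0.173%) stood apart from the other libraries of their lines (13.2% to 38.0%). For KDAC8H143A and the inhibitors, this difference in library composition and the difference from WT cells cannot be told apart. The mesenchymal markers VIM, FN1, CDH2, SPARC, CD44 and S100A4 summed to between 3349 and 8951 CPM, counts per 1000000 counts of a library, in every library, although S100A4 added at most 3.26 CPM to that sum. Of the epithelial markers, EPCAM was at or under 3 counts in every library, CDH1 and KRT19 were at most 0.234 CPM, and CLDN4 was at 2.895 to 9.47 CPM. Of the leukocyte markers, PTPRC, CD3E and CD79A were at or under 3 counts in every library, whereas CD68 was at 16.7 to 107.6 CPM. The mesenchymal marker sum also moved with the groups, from 5647 to 6508 CPM in WT cells, 3349 to 4465 CPM in KDAC8H143A, 7956 to 8371 CPM with Tubastatin A and 8670 to 8951 CPM with PCI-34051, and its part in the results was not tested. FN1 was at 643 to 797 CPM in WT cells, 2227 to 2539 CPM with Tubastatin A and 3043 to 3255 CPM with PCI-34051. CDH2, SPARC and CD44 were also higher with each inhibitor. VIM was not, at 3524 to 4078, 3562 to 3607 and 3037 to 3381 CPM in the same order. In such bulk libraries, a change in the share of cells that express a gene and a change in RNA per cell cannot be told apart.

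The 10 genes covered a wide range of abundance. Per length, as CPM per kilobase of the canonical transcript, ATF4 had the highest level in WT cells, 277 ± 18.4 (SD, n = 4), followed by PSAT1 at 97.6 ± 7.54, PHGDH at 88.9 ± 5.67 and ASNS at 60.4 ± 4.396. TRIB3 (31.9 ± 3.16) and XBP1 (31.7 ± 2.72) lay below these, and DDIT4 (15.1 ± 1.51), DDIT3 (14.4 ± 1.64), SESN2 (12.1 ± 0.649) and CHAC1 (9.38 ± 0.846) were lowest. Thus the enzymes of serine and asparagine synthesis and ATF4 itself were already abundant in untreated cells, whereas CHAC1, DDIT3, SESN2 and DDIT4 were present at low levels. All other values below are CPM, scaled by the TMM method over the 22 libraries, which compares libraries for 1 gene and not genes with each other.

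**Figure D1:**
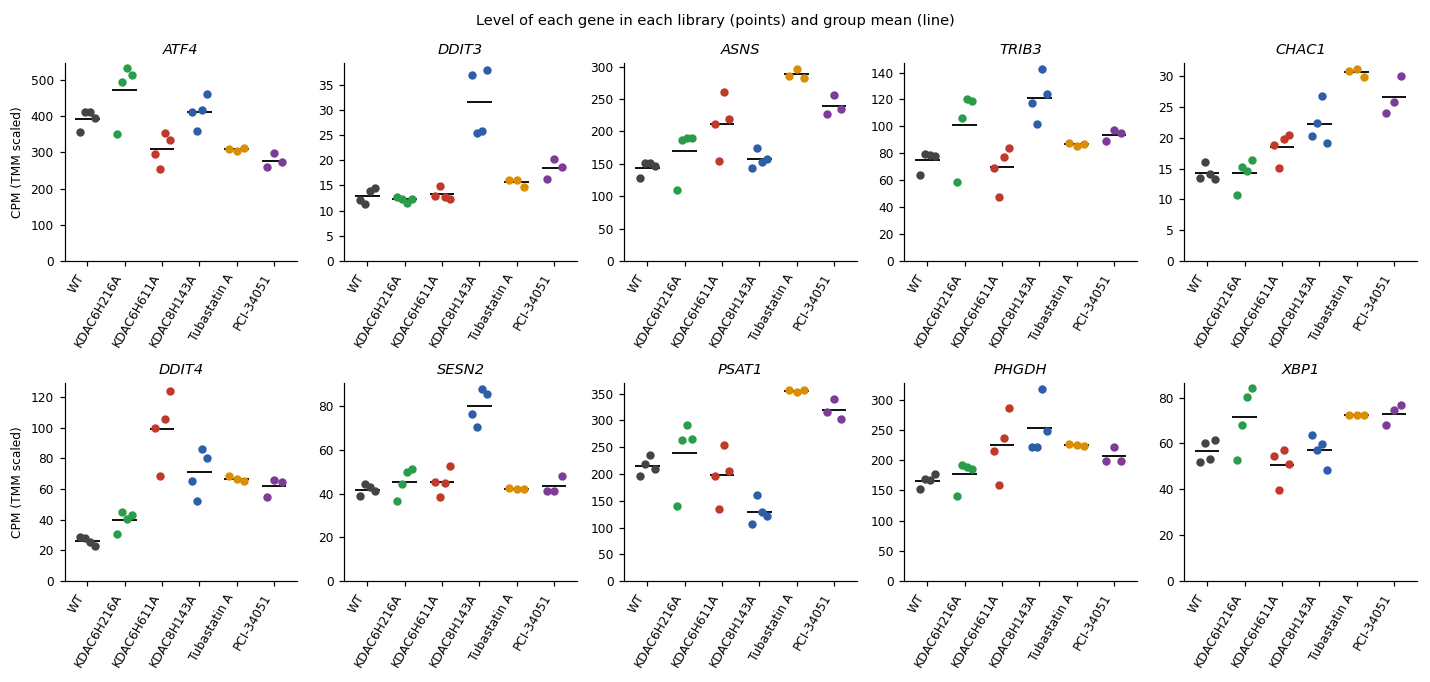
Level of each of the 10 genes in every library (points, CPM after TMM scaling, axes from 0) in WT cells, the 3 mutant lines and the 2 inhibitor treatments, with the group mean as a line. DDIT4 lay above WT cells in every library of all 5 other groups, and DDIT3 and SESN2 stood highest in KDAC8H143A. The group mean of ATF4 was lowest with PCI-34051.

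Each mutant line and treatment was compared with WT cells by edgeR's quasi-likelihood test, and a gene was called where its p, adjusted by the Benjamini-Hochberg method over all genes tested, was below 0.01. In KDAC6H216A, 0 of the 10 genes were called, where 0.834% of all genes were. DESeq2 called 1, where it called 2.53% of all genes, and 2 had an unadjusted p below 0.05 in edgeR's test. The share of all genes at that unadjusted level was not computed, here or for the lists below, so those counts have no background beside them. In KDAC6H611A, 2 rose and 0 fell, where 12.3% of all genes were called (6.08% higher and 6.24% lower). In KDAC8H143A, 6 rose and 1 fell (58.5% of all genes), with Tubastatin A 6 rose and 1 fell (57.9%), and with PCI-34051 8 rose and 1 fell (51.1%). With so many genes called, 7 of 10 in KDAC8H143A and with Tubastatin A is not far from the background, and the size and direction of each gene's change say more than the count. The 5 comparisons share the WT libraries. In 1 fit of all 6 groups, with a shared estimate of spread, some of these calls were lost: ASNS in KDAC6H611A, ATF4, PHGDH and XBP1 with Tubastatin A (adjusted p from 0.0304 to 0.0490), and TRIB3, PSAT1, PHGDH and XBP1 with PCI-34051 (adjusted p from 0.0273 to 0.193, edgeR), where 11.3%, 24.9% and 23.5% of all genes were called.

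**Figure D2:**
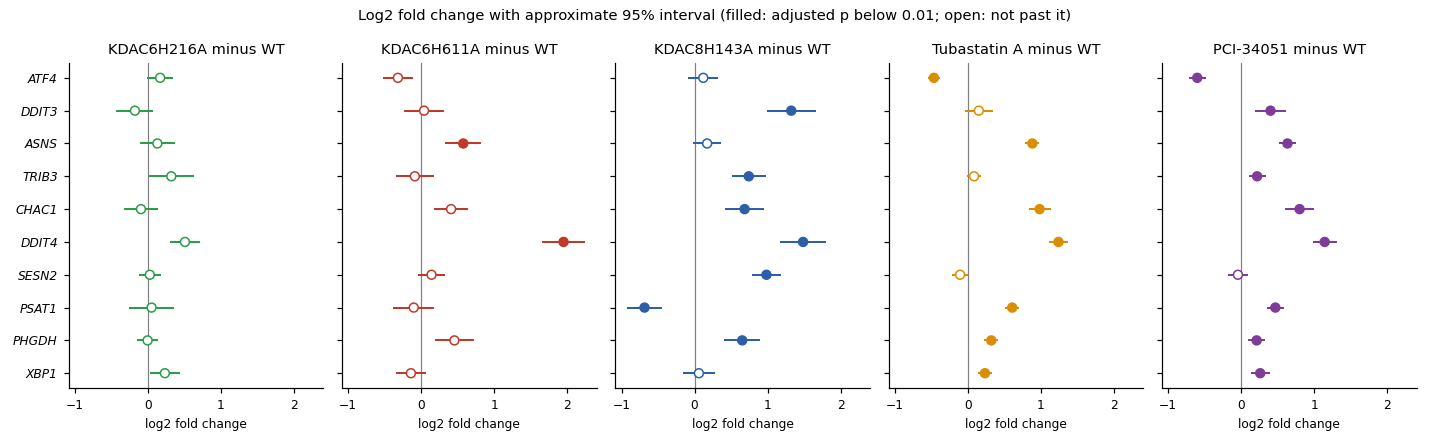
Log2 fold change of the 10 genes against WT cells in each of 5 comparisons, with bars for approximate 95% intervals and filled points where the adjusted p of edgeR's quasi-likelihood test was below 0.01. DDIT4 had filled points in 4 of the 5 comparisons, and ATF4 lay below 0 with both inhibitors.

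The level of ATF4 mRNA (ENSG00000128272, chromosome 22, 39519695 to 39522683, plus strand), which encodes the central transcription factor of the response, was lower with both inhibitors. WT libraries had 356, 411, 412 and 395 CPM. Those of Tubastatin A had 309, 305 and 312 CPM and those of PCI-34051 260, 298 and 274 CPM, so that neither treated group overlapped with WT cells. The log2 fold change was -0.46 ± 0.05 (SE) with Tubastatin A (adjusted p = 3.047e-08, edgeR) and -0.60 ± 0.06 with PCI-34051 (adjusted p = 1.648e-07). Both kept their sign when libraries were scaled by total count alone, a scaling that moved the median of all genes up by 0.348 and 0.380, but ATF4 was then at -0.11 with Tubastatin A and did not pass the threshold. In KDAC8H143A the level was 410.5, 360.0, 416 and 462 CPM, within and above the WT range, and the fold change of 0.12 ± 0.10 did not pass (adjusted p = 0.319, edgeR). KDAC6H611A libraries had 296, 255, 355 and 334 CPM, all below WT cells, at an adjusted p of 0.0489 (log2 fold change -0.32 ± 0.11). In KDAC6H216A, replicate 1 had 350.3 CPM and the other libraries 493, 533 and 514 CPM. The order of the group means ran from KDAC6H216A (473 CPM) through KDAC8H143A (412), WT (393), KDAC6H611A (310.0) and Tubastatin A (309) to PCI-34051 (278), and only the steps from WT to KDAC6H611A and from Tubastatin A to PCI-34051 separated neighbours without overlap of libraries.

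DDIT3 (ENSG00000175197, chromosome 12, 57516588 to 57521737, minus strand) encodes CHOP, a transcription factor of the C/EBP family that promotes cell death under prolonged ER stress. It was highest in KDAC8H143A, with 36.9, 25.5, 25.9 and 38.0 CPM against 12.1, 11.4, 13.8 and 14.6 CPM in WT cells. The fold was 2.50 (log2 1.32 ± 0.17, adjusted p = 3.704e-05, edgeR), and the groups did not overlap. With PCI-34051 it was 16.3, 20.2 and 18.6 CPM, a smaller rise of 0.40 ± 0.11 on the log2 scale (adjusted p = 0.00424) that did not pass without WT replicate 2, PCI-34051 replicate 2 or PCI-34051 replicate 3 (adjusted p up to 0.0278). With Tubastatin A it was 16.1, 16.1 and 14.6 CPM, at 0.15 ± 0.10 and an adjusted p of 0.187. KDAC6H216A (11.5 to 12.7 CPM) and KDAC6H611A (12.4 to 14.8 CPM) overlapped with WT cells. DDIT3 overlaps MARS1, whose summed count was 1884% of its own, and MBD6 (219.6%) on the opposite strand, and whether counting used strand is not given in the sources used here, so reads of these genes cannot be told apart with certainty.

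XBP1 (ENSG00000100219, chromosome 22, 28794555 to 28800597, minus strand), the factor of the IRE1 branch and the gene with the ERSE pattern, differed little between groups. It rose slightly with both inhibitors, from 51.9, 60.2, 53.3 and 61.7 CPM in WT cells to 72.4, 72.5 and 72.4 CPM with Tubastatin A and 67.8, 74.5 and 76.6 CPM with PCI-34051. The groups did not overlap, and the log2 fold changes were 0.23 ± 0.05 (adjusted p = 0.000495, edgeR) and 0.26 ± 0.07 (adjusted p = 0.00246). Without WT replicate 3 or PCI-34051 replicate 3, the adjusted p of the latter was 0.0133 or 0.0120. In KDAC8H143A XBP1 was at 48.4 to 63.6 CPM, at a log2 fold change of 0.06 ± 0.11. KDAC6H611A was the lowest group at 50.5 ± 7.71 CPM (SD, n = 4), overlapping with WT cells.

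Among the targets of ATF4 in amino acid and glutathione metabolism, ASNS and CHAC1, the genes with the CARE pattern, rose with both inhibitors. DDIT4, PSAT1 and PHGDH, which did not hold the pattern in the window searched, also rose with both inhibitors. The part of the pattern in these rises was not tested. ASNS (ENSG00000070669, chromosome 7, 97851677 to 97872542, minus strand) encodes asparagine synthetase, which makes asparagine from aspartate. WT cells had 129, 151, 151 and 146 CPM of ASNS, Tubastatin A 286, 296 and 283 CPM, and PCI-34051 228, 256 and 235 CPM. These were folds of 1.84 (log2 0.88 ± 0.05, adjusted p = 7.486e-12, edgeR) and 1.55 (0.63 ± 0.06, adjusted p = 6.299e-08), and the groups did not overlap with WT cells. In KDAC6H611A, ASNS was at 211, 155, 260.4 and 219 CPM, a log2 fold change of 0.58 ± 0.12 (adjusted p = 0.00532), although replicate 2 lay just above the highest WT library. This call was lost when any of the 4 WT libraries or KDAC6H611A replicate 1, 3 or 4 was left out (adjusted p from 0.0103 to 0.0264), and held without replicate 2. KDAC8H143A, at 143.025, 175, 152 and 158 CPM, did not pass (0.17 ± 0.10, adjusted p = 0.125), but corrected for GC content and length it was at 0.60 with an adjusted p of 7.008e-05.

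CHAC1 (ENSG00000128965, chromosome 15, 40952962 to 40956512, plus strand) encodes an enzyme that degrades glutathione. It was at 13.4, 16.1, 14.1 and 13.3 CPM in WT cells, 30.8, 31.1 and 29.96 CPM with Tubastatin A and 24.1, 25.8 and 30.1 CPM with PCI-34051. The rise was 1.98-fold with Tubastatin A (log2 0.98 ± 0.08, adjusted p = 1.587e-09, edgeR) and 1.74-fold with PCI-34051 (0.80 ± 0.10, adjusted p = 3.028e-06). In KDAC8H143A, at 20.3, 22.5, 26.8 and 19.2 CPM, CHAC1 rose by 0.69 ± 0.13 (adjusted p = 0.000709), which turned to -0.17 with the correction for GC content and length. KDAC6H611A had 18.9, 15.1, 19.8 and 20.5 CPM and overlapped with WT cells (0.41 ± 0.12, adjusted p = 0.0289), and KDAC6H216A lay at 10.64 to 16.5 CPM around the same mean as WT cells.

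TRIB3 (ENSG00000101255, chromosome 20, 362835 to 397559, plus strand) encodes a pseudokinase that binds ATF4 and AKT and limits the response. It was highest in KDAC8H143A, at 117, 102, 142 and 124 CPM against 63.9, 79.5, 78.4 and 78.3 CPM in WT cells, without overlap. That rise of 0.74 ± 0.12 on the log2 scale (adjusted p = 0.000171, edgeR) also changed sign, to -0.20, with the GC content and length correction. PCI-34051 gave 89.5, 97.0 and 95.4 CPM and a rise of 0.22 ± 0.06 (adjusted p = 0.00403), which did not pass without WT replicate 1, PCI-34051 replicate 2 or PCI-34051 replicate 3 (adjusted p up to 0.0145). Tubastatin A gave 87.7, 85.7 and 86.6 CPM, all above WT cells but at 0.08 ± 0.05 with an adjusted p of 0.147. In KDAC6H216A replicate 1 had 58.6 CPM, below every WT library, and the other 3 had 106, 120.0 and 119 CPM, above them.

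The largest changes of the 10 genes were those of DDIT4 (ENSG00000168209, chromosome 10, 72273919 to 72276036, plus strand), which encodes REDD1, an inhibitor of the growth kinase mTORC1 that responds to hypoxia, glucocorticoids and energy stress as well as to ATF4. WT libraries had 28.7, 27.96, 25.4 and 22.9 CPM, below every library of all 5 other groups. In KDAC6H611A DDIT4 was at 100.1, 68.4, 105 and 124 CPM, a fold of 3.86 (log2 1.95 ± 0.15, adjusted p = 3.212e-06, edgeR). KDAC8H143A, with 65.3, 52.4, 85.9 and 80.3 CPM, had a fold of 2.80 (1.49 ± 0.16, adjusted p = 1.074e-05), and 0.80 with the correction for GC content and length, still past the threshold. The inhibitor groups were close to each other, at 68.7, 66.2 and 65.0 CPM with Tubastatin A (1.24 ± 0.07, adjusted p = 5.561e-12) and 54.9, 65.7 and 64.4 CPM with PCI-34051 (1.14 ± 0.08, adjusted p = 3.249e-09). KDAC6H216A was lowest of the 5, with 30.7 CPM in replicate 1 and 44.9, 40.5 and 42.8 CPM in the others. Its log2 fold change of 0.51 ± 0.11 did not pass with all 4 libraries (adjusted p = 0.0400) and passed without replicate 1 (0.58, adjusted p = 3.995e-05).

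SESN2 (ENSG00000130766, chromosome 1, 28259518 to 28282491, plus strand) encodes sestrin 2, a leucine sensor that also restrains mTORC1. It was raised in KDAC8H143A, where all 4 libraries, at 76.6, 70.3, 87.9 and 85.4 CPM, lay above 39.1, 44.3, 42.8 and 41.1 CPM in WT cells. The fold was 1.98 (log2 0.98 ± 0.10, adjusted p = 8.796e-06, edgeR), but 0.16 with an adjusted p of 0.113 with the correction for GC content and length. The other 4 groups overlapped with WT cells, with means between 42.2 and 45.5 CPM. Tubastatin A libraries were at 42.7, 42.0 and 41.9 CPM and PCI-34051 libraries at 41.2, 41.2 and 48.3 CPM. Their log2 fold changes of -0.11 ± 0.05 and -0.05 ± 0.07 did not pass, and became 0.24 and 0.34, past the threshold, when total count alone was used, less than the shift of the median gene under that scaling.

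The genes of serine synthesis, PHGDH and PSAT1, moved apart in KDAC8H143A and rose together with the inhibitors. PHGDH (ENSG00000092621, chromosome 1, 119648411 to 119744218, plus strand) encodes the first enzyme of the pathway from 3-phosphoglycerate, and PSAT1 (ENSG00000135069, chromosome 9, 78297125 to 78330093, plus strand) the aminotransferase that follows it. PHGDH was at 152, 169, 167 and 177 CPM in WT cells and at 221, 221, 318 and 248 CPM in KDAC8H143A, while PSAT1 was at 196, 219, 236 and 209.9 CPM in WT cells and at 107, 162, 129 and 121 CPM in KDAC8H143A. Neither pair of groups overlapped. PHGDH rose by 0.65 ± 0.12 (adjusted p = 0.000587, edgeR) and turned to -0.03 with the correction for GC content and length. PSAT1 fell by 0.69 ± 0.12 on the log2 scale (adjusted p = 0.000390), and was at -0.23 with an adjusted p of 0.0542 after that correction.

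With Tubastatin A, PSAT1 was at 357, 353 and 357 CPM, a rise of 0.61 ± 0.05 (adjusted p = 1.655e-09, edgeR), and PHGDH at 226, 225 and 223 CPM, a rise of 0.32 ± 0.05 (adjusted p = 7.976e-06). PCI-34051 libraries had 316, 340.3 and 302 CPM of PSAT1 (0.47 ± 0.06, adjusted p = 3.190e-06) and 198, 221 and 199 CPM of PHGDH (0.21 ± 0.06, adjusted p = 0.00502). The call of PHGDH with PCI-34051 was lost without WT replicate 1, 2 or 3 or PCI-34051 replicate 2 (adjusted p up to 0.0257). In KDAC6H611A, PHGDH spread from 160 to 286 CPM and PSAT1 from 135 to 255 CPM, and both overlapped with WT cells. In KDAC6H216A, replicate 1 had the lowest level of both genes (141 CPM of PHGDH and 140.6 CPM of PSAT1), against 186 to 191 CPM and 263 to 291 CPM in the other libraries.

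Since replicate 1 of KDAC6H216A stood apart in mitochondrial rRNA, this comparison was repeated without it. That library was also the lowest of its group for 9 of the 10 genes, so leaving it out raises their group means by construction. Of the 10 genes, 6 then rose and 0 fell, where 26.0% of all genes were called. They were ATF4 (log2 fold change 0.25), ASNS (0.25), TRIB3 (0.47), DDIT4 (0.58), PSAT1 (0.20) and XBP1 (0.31), with adjusted p between 8.527e-06 and 0.00663 in edgeR's test. CHAC1, DDIT3, SESN2 and PHGDH did not pass. For KDAC6H611A, leaving out replicate 4 gave 1 called gene, DDIT4 (10.3% of all genes), and leaving out replicate 2, the library with the highest share of mitochondrial rRNA, gave 4 (ASNS, CHAC1, DDIT4 and PHGDH, all higher), where 19.4% of all genes were called.

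The changes of KDAC8H143A depended on whether a joint correction for GC content and gene length was applied. The part of each of these in that dependence was not tested. Of the 6 genes that rose there, TRIB3, CHAC1, DDIT4, SESN2 and PHGDH have canonical transcripts of 58.0% to 61.5% GC, between the 78.0 and 88.4 percentile of protein-coding genes, whereas PSAT1, which fell, has 42.5% and ASNS 42.7%. DDIT3 has 50.5%. After a smooth correction of each library for GC content and gene length, 3 of the 10 genes were called in KDAC8H143A, DDIT3 (1.155), DDIT4 (0.80) and ASNS (0.60), all higher, where 48.8% of all genes were called (21.6% higher and 27.2% lower). With the inhibitors the same correction gave 7 higher and 1 lower for Tubastatin A, with DDIT3 added at 0.35, and 8 higher and 1 lower for PCI-34051, where 56.9% and 51.3% of all genes were called. Scaling by total count alone moved the median of all genes by 0.172 for KDAC6H216A, 0.364 for KDAC8H143A, 0.348 for Tubastatin A and 0.380 for PCI-34051, and gave 8 higher and 0 lower, 9 higher and 0 lower, and 9 higher and 1 lower of the 10 genes in the last 3 groups. Over all genes, that scaling turned the split of higher and lower calls to 40.3% and 15.5% for KDAC8H143A, 51.9% and 12.1% for Tubastatin A and 51.4% and 9.62% for PCI-34051.

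**Figure D3:**
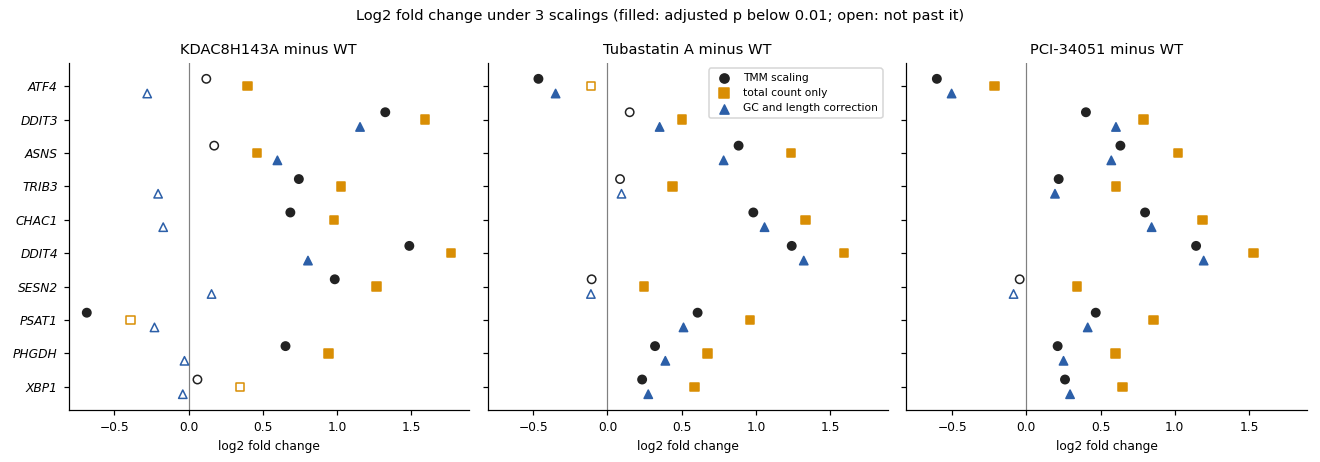
Log2 fold change against WT cells of the 10 genes for KDAC8H143A and each inhibitor treatment under TMM scaling (circles), scaling by total count alone (squares) and correction for GC content and length (triangles), filled where the adjusted p was below 0.01. In KDAC8H143A, ATF4, TRIB3, CHAC1, PHGDH and XBP1 changed sign with the correction, whereas with the inhibitors only SESN2 changed sign, under total count.

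Direct comparisons between groups were made to test differences that the comparisons with WT cells leave untested. Between the KDAC6 mutants, DDIT4 was higher in KDAC6H611A than in KDAC6H216A by 1.41 ± 0.15 on the log2 scale (99.5 ± 23.1 against 39.7 ± 6.29 CPM, SD, n = 4 each, adjusted p = 0.000211, edgeR). It was the only 1 of the 10 genes called, where 9.93% of all genes were, and the groups did not overlap. Without KDAC6H216A replicate 1, 4 were called, where 19.5% of all genes were: DDIT4 higher (1.335), and ATF4 (-0.61), TRIB3 (-0.61) and XBP1 (-0.49) lower in KDAC6H611A.

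The inhibitors differed little in these genes, at doses that differed (1 µM Tubastatin A, 5 µM PCI-34051) and with the same time of 2 days. Of the 10 genes, 1 was called, where 5.65% of all genes were: ASNS was higher with Tubastatin A (288 ± 7.11 against 239.7 ± 14.9 CPM, SD, n = 3 each) by 0.25 ± 0.05 (adjusted p = 0.00390, edgeR). That call was lost without any 1 of the Tubastatin A libraries or PCI-34051 replicate 1 (adjusted p from 0.0178 to 0.0264), and without PCI-34051 replicate 3 CHAC1 was called as well (0.29, adjusted p = 0.00763). For the other 9 genes the approximate 95% intervals of the log2 difference, Tubastatin A minus PCI-34051, lay between -0.43 and 0.33. Those of DDIT3 (-0.43 to -0.08) and TRIB3 (-0.22 to -0.04) lay below 0, and those of CHAC1 (0.04 to 0.33), ATF4 (0.04 to 0.24), PSAT1 (0.05 to 0.23) and PHGDH (0.01 to 0.21) above it. The intervals of DDIT4 (-0.02 to 0.21), XBP1 (-0.12 to 0.07) and SESN2 (-0.18 to 0.06) included 0.

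PCI-34051 and KDAC8H143A, which address the same enzyme, were also compared, and both sets of libraries have low mitochondrial rRNA. Of the 10 genes, 2 were higher and 3 lower with PCI-34051, where 58.2% of all genes were called (30.3% higher and 27.8% lower). PSAT1 was higher by 1.34 ± 0.15 (319 ± 19.3 against 129 ± 23.3 CPM, SD, n = 3 and 4, adjusted p = 2.651e-05, edgeR) and ASNS by 0.65 ± 0.12 (adjusted p = 0.000539). SESN2 was at -0.84 ± 0.12 (adjusted p = 0.000138), DDIT3 was at -0.74 ± 0.17 (adjusted p = 0.00311) and ATF4 at -0.53 ± 0.12 (adjusted p = 0.00241). None of these pairs of groups overlapped. Where 51.9% of all genes were called with the GC content and length correction, PSAT1 (0.66) was called again, ASNS was at -0.01, and SESN2 (-0.22), DDIT3 (-0.46) and ATF4 (-0.20) did not pass, while CHAC1 (1.07), TRIB3 (0.43), DDIT4 (0.43) and XBP1 (0.37) passed as higher. Without PCI-34051 replicate 1 or 3, 3 genes were called, ATF4 and DDIT3 being lost, where 46.9% and 48.3% of all genes were called. DDIT3 was also lost without KDAC8H143A replicate 1 (adjusted p = 0.0111).

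Tubastatin A and KDAC6H611A differed in 3 of the 10 genes, where 34.9% of all genes were called. With Tubastatin A, CHAC1 was higher by 0.61 ± 0.11 (30.6 ± 0.606 against 18.6 ± 2.402 CPM, SD, n = 3 and 4, adjusted p = 0.000887, edgeR) and PSAT1 by 0.74 ± 0.16 (356 ± 2.02 against 198 ± 49.4 CPM, adjusted p = 0.00356). DDIT4 was at -0.69 ± 0.15 (66.6 ± 1.89 against 99.5 ± 23.1 CPM, adjusted p = 0.00405), although replicate 2 of KDAC6H611A fell within the Tubastatin A range, and this call was lost with total count alone (-0.42, adjusted p = 0.236) and with the GC content and length correction (-0.45, adjusted p = 0.0258), where PSAT1 was also lost (0.61, adjusted p = 0.0136). CHAC1 was called with each library left out in turn. The calls of PSAT1 and DDIT4 were both lost without KDAC6H611A replicate 1 or 4 or any 1 of the Tubastatin A libraries, that of DDIT4 also without KDAC6H611A replicate 3 (adjusted p from 0.0105 to 0.0254 for DDIT4 and from 0.0124 to 0.0167 for PSAT1).

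The 10 genes were set beside 79 other genes of these pathways in 4 lists. In the list of ATF4 partners and targets (27 genes, 26 tested), 14 rose and 5 fell with Tubastatin A (median log2 fold change 0.29) and 13 rose and 4 fell with PCI-34051 (0.32), where 29.3% and 25.5% of all genes rose and 28.6% and 25.6% fell, around medians of -0.00293 and -0.00711. GDF15, a secreted stress cytokine, rose 3.72-fold with Tubastatin A and 3.97-fold with PCI-34051, from 150.1 ± 23.1 to 606 ± 23.1 and 639 ± 18.7 CPM (SD, n = 4, 3 and 3). STC2, the secreted glycoprotein stanniocalcin 2, rose 3.08-fold with Tubastatin A, and CEBPB, a C/EBP transcription factor that pairs with ATF4, rose 3.38-fold with PCI-34051. Both were high with the other inhibitor too. STC2 had a mean of 99.3 CPM in WT cells, 333 with Tubastatin A and 358 with PCI-34051, and CEBPB had 34.1, 103.7 and 125 CPM. With total count alone 20 of the list were higher and 0 lower with each inhibitor (medians 0.64 and 0.71). Of all genes, 51.9% and 51.4% were then higher and 12.1% and 9.62% lower, around medians of 0.348 and 0.380. Under TMM scaling not all rose. ATF5 fell by 0.47 and PPP1R15A, the phosphatase subunit that reverses eIF2 phosphorylation, by 0.45 with Tubastatin A. With PCI-34051, JDP2 fell by 0.62 and EIF4EBP1 by 0.52.

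In KDAC8H143A this list was divided, with 10 genes higher and 7 lower (median 0.22, against 0.08 over all genes), where 31.6% of all genes rose and 26.9% fell. ADM2, a peptide hormone of the calcitonin family, rose 2.55-fold and GDF15 2.54-fold. CTH, which makes cysteine from cystathionine, fell by 1.45 on the log2 scale and SLC38A2, an amino acid transporter, by 1.14. With the correction for GC content and length, 3 of the list were higher and 9 lower, where 21.6% and 27.2% of all genes were. The list median turned to -0.23, against -0.037 over all genes. In KDAC6H611A, 2 rose and 2 fell, where 6.08% of all genes rose and 6.24% fell. ALDH1L2, a mitochondrial folate enzyme, was 1.91-fold higher, and ATF5 (by 0.64) and SLC7A1, a cationic amino acid transporter (by 0.58), were lower. In KDAC6H216A 0 of 26 passed in edgeR's test, where 0.834% of all genes did. DESeq2 called 2, where it called 2.53% of all genes, and 9 had an unadjusted p below 0.05, a level at which no share of all genes was computed.

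The list of serine and folate one-carbon enzymes (10 genes), which continue the pathway of PHGDH and PSAT1, was divided. With Tubastatin A 2 rose and 2 fell (median -0.09), and with PCI-34051 2 rose and 4 fell (-0.16). Of all genes, 29.3% rose and 28.6% fell with Tubastatin A, and 25.5% and 25.6% with PCI-34051. Scaled by total count alone, 8 were higher and 1 lower (0.26), and 6 higher and 1 lower (0.23). The shares of all genes were then 51.9% and 12.1%, and 51.4% and 9.62%. The medians of all genes were then 0.348 and 0.380, above those of the list. The rises were small, in MTHFD1L (0.19 and 0.21), a mitochondrial formate enzyme, and SFXN1 (0.20 and 0.19), the mitochondrial serine carrier, whereas SHMT1, the cytosolic enzyme that takes a carbon from serine, fell by 0.86 and by 0.94. In KDAC8H143A 0 rose and 5 fell (median -0.39), among them GCSH of the glycine cleavage system (-0.94). There, 31.6% of all genes rose and 26.9% fell. Total count alone gave 0 higher and 3 lower (-0.10), where 40.3% and 15.5% of all genes were. The GC content and length correction gave 0 higher and 6 lower (-0.38), where 21.6% and 27.2% of all genes were. In KDAC6H611A 1 fell, TYMS (-0.78), where 6.24% of all genes fell. In KDAC6H216A 0 of 10 passed in edgeR's test, where 0.834% of all genes did, and 2 had an unadjusted p below 0.05. DESeq2 called 0, where it called 2.53% of all genes.

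Of the stress sensors and eIF2 machinery (18 genes), 11 rose and 4 fell with Tubastatin A (median 0.24). With PCI-34051, 8 rose and 4 fell (median 0.20). Of all genes, 29.3% rose and 28.6% fell with Tubastatin A, and 25.5% and 25.6% with PCI-34051. The GC content and length correction gave 7 higher and 5 lower (0.10) and 6 higher and 4 lower (0.072). It called 56.9% and 51.3% of all genes in either direction. Total count alone gave 13 and 14 higher and 0 lower. Of all genes, 51.9% were then higher and 12.1% lower with Tubastatin A, and 51.4% and 9.62% with PCI-34051. MBTPS2, the protease that completes the activation of ATF6, rose 2.01-fold and 2.16-fold. EIF2AK3, the ER stress kinase PERK, rose by 0.46 with Tubastatin A, and ERN1, which encodes IRE1, by 0.76 with PCI-34051. For EIF2AK3 and ERN1 the change with the other inhibitor is not given, since genes were named by size within each comparison. Subunits of eIF2B, the exchange factor that eIF2 phosphorylation blocks, were among the falls under TMM scaling, where total count alone gave none: EIF2B3 (-0.40) and EIF2B5 (-0.34) with Tubastatin A, and EIF2B2 (-0.48) and EIF2B3 (-0.34) with PCI-34051. In KDAC8H143A 2 rose and 9 fell (median -0.35), where 31.6% of all genes rose and 26.9% fell. Total count alone gave 3 higher and 4 lower (-0.059), where 40.3% and 15.5% of all genes were. The GC content and length correction gave 1 higher and 6 lower (-0.23), where 21.6% and 27.2% of all genes were. Under TMM scaling, ATF6B in KDAC8H143A was 1.98-fold higher and ATF6 at a log2 fold change of -1.197. EIF2B3 was at -0.99 there, a larger fall than with either inhibitor (9.23 against 18.95 CPM in WT cells). In KDAC6H611A and KDAC6H216A 0 of 18 passed in edgeR's test, where 12.3% and 0.834% of all genes did. At an unadjusted p below 0.05 were 5 and 1. DESeq2 also called 0, where it called 15.8% and 2.53% of all genes.

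Of the 4 lists, the one with the largest difference between PCI-34051 and KDAC8H143A in its median was that of ER chaperones and disposal genes controlled by XBP1 and ATF6 (24 genes). With Tubastatin A 18 of 23 tested rose and 0 fell (median 0.39), and with PCI-34051 16 rose and 1 fell (0.44). The shares of all genes that rose and fell were 29.3% and 28.6% with Tubastatin A, and 25.5% and 25.6% with PCI-34051. HSPA5, the main ER chaperone BiP, rose from 228 ± 8.53 CPM in WT cells (SD, n = 4) to 676 ± 9.48 with Tubastatin A and 710.4 ± 18.9 with PCI-34051 (n = 3 each), folds of 2.73 and 2.90. SEC24D, a coat protein of vesicles leaving the ER, rose 2.14-fold with Tubastatin A and SEL1L, a scaffold of ER-associated degradation, 1.99-fold with PCI-34051. Naming SEC24D and SEL1L with 1 inhibitor each follows from the size of change within a comparison and does not set the inhibitors apart. In KDAC8H143A 1 of 24 rose, SYVN1 (1.90-fold), and 16 fell (median -1.04), where 31.6% of all genes rose and 26.9% fell. PDIA4, a protein disulfide isomerase, fell by 2.17 on the log2 scale, from 115 ± 11.5 to 24.7 ± 5.87 CPM, and SEL1L by 1.76. HSPA5 was not among the falls (log2 fold change -0.07, adjusted p = 0.534, edgeR).

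The direct comparison of PCI-34051 with KDAC8H143A uses the same libraries, so it restates the difference in this list and is no separate evidence of it. There, 19 of 24 genes were higher and 1 lower with PCI-34051 (median 1.47, against 0.02 over all genes), where 30.3% of all genes were higher and 27.8% lower. Between Tubastatin A and PCI-34051, 0 of 24 passed in edgeR's test, where 5.65% of all genes did. DESeq2 called 1, where it called 7.66% of all genes. At an unadjusted p below 0.05 were 9, but the share of all genes at that level was not computed. With the GC content and length correction, the counts for KDAC8H143A were 0 higher and 18 lower (median -0.81). For the inhibitors they were 19 higher and 1 lower (Tubastatin A) and 17 higher and 1 lower (PCI-34051). That correction called 21.6% of all genes higher and 27.2% lower in KDAC8H143A, and 56.9% and 51.3% in either direction with the inhibitors. In KDAC6H611A 1 rose (EDEM1, 1.499-fold) and 1 fell (CRELD2, by 0.85), where 6.08% of all genes rose and 6.24% fell. In KDAC6H216A 0 of 23 passed in edgeR's test, where 0.834% of all genes did. DESeq2 called 1, where it called 2.53% of all genes. There 10 had an unadjusted p below 0.05, again without a share of all genes beside them. Mesenchymal markers moved with this list, 4 of 5 tested being lower in KDAC8H143A and 4 of 5 higher (1 lower) with each inhibitor. CD68 moved the same way (log2 fold change -1.47 for KDAC8H143A, 0.42 for Tubastatin A and 0.57 for PCI-34051, all called), and CLDN4 was called higher in KDAC8H143A (0.97). The part of these markers in the change of the list was not tested.

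**Figure D4:**
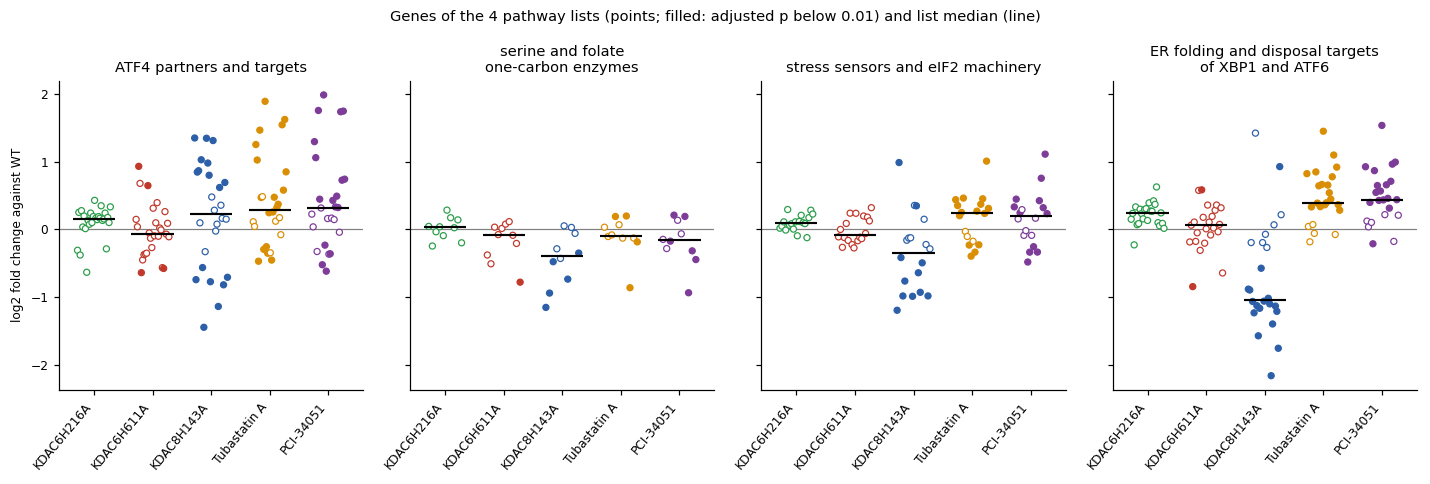
Log2 fold change against WT cells of each gene (points, filled where the adjusted p was below 0.01) of the 4 pathway lists in the 5 comparisons, with the list median as a line. The ER list lay mostly above 0 with both inhibitors (medians 0.39 and 0.44) and below it in KDAC8H143A (median -1.04).

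The genes whose group means followed those of ATF4 most closely were sought among 8080 genes of at least 10 CPM, by the mean absolute difference of centred log2 levels over the 6 groups. These were PSMG3 (0.0385), FNIP2 (0.0386), RANBP1 (0.0481), HDGF (0.0489) and TYRO3 (0.0497), against a median of 0.364 over all genes compared. None of the other 9 genes described here was among the 5 nearest. The 6 group means that the genes were compared on share their libraries, and the likeness is a description.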

How the data were processed

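RNA-seq of HT1080 cells was analysed from the table of expected counts per gene deposited by the authors. Per the submitters' processing notes, Trimmomatic 0.39, Bowtie2 2.4.5 and RSEM 1.3.3 were used with GRCh38, and DESeq2 1.38.2 is also named. The annotation release and strand setting are not given in the sources used here. Expected counts were rounded and tested in R 4.3.3 with edgeR 4.0.16 (TMM, filterByExpr, glmQLFit, glmQLFTest), each comparison on its 2 groups, and p-values were adjusted by Benjamini-Hochberg (called below 0.01). The standard error was the log2 fold change divided by the square root of F, and approximate 95% intervals are 1.96 standard errors. With so few libraries these intervals are narrower than the F test implies. For TRIB3 in KDAC6H216A the interval was 0.011 to 0.63, although the unadjusted p of edgeR's test was 0.0702. CPM values were scaled over all 22 libraries, so ratios of CPM can differ from fitted folds. Coordinates, lengths and GC content came from GENCODE 44 (56558 of 60675 identifiers matched). The scripts were tested on simulated data. The 10 genes and the 4 lists were chosen with earlier results of these data known. Named list genes were at most the 2 largest rises and 2 largest falls per list and comparison with WT cells among called genes without overlap of libraries; HSPA5 in KDAC8H143A was added after its value was seen, and 1 gene that the rule names is not reported here. Alternatives were DESeq2 1.42.0, total-count scaling, other filters, a fit of all 6 groups, mgcv 1.9.3 smooths for GC content and length, a replicate block, other thresholds and leaving out each library.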

Additional observations from a re-analysis of the deposited data

Results flagged for a closer look

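In 3 of 40 groups of 4 libraries, 1 library of a gene lay apart from the other 3 by Dixon's criterion, which chance alone meets in about 1 of 20 groups. In KDAC6H216A replicate 1, ASNS was at 109.7 CPM against 187.0 to 189.9 CPM in the other libraries, and PHGDH was at 141.2 CPM against 185.5 to 191.2 CPM. This is the library of its group with 0.195% mitochondrial rRNA, against 13.2% to 15.1% in the others, and the part of that difference in these values was not tested. In WT replicate 1, the shallowest library, TRIB3 was at 63.91 CPM against 78.31 to 79.51 CPM.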

How the results depend on the processing

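Of 940 fold changes of the 10 genes under an alternative, 818 kept direction and side of the threshold, 22 passed only under the alternative, 63 passed only in the fit as reported and 37 changed sign. The cause was not tested for any of them beyond the construction of the alternative (fewer libraries, or a stricter threshold). Counts of called genes that moved by over 1.5 times were as follows, and the share of all genes called moved with several of them. That share was not computed for an adjusted p below 0.05 or for a minimum fold change. In KDAC6H216A against WT (0, with 0.834% of all genes), DESeq2 (2.53%), total count only (3.06%) and an adjusted p below 0.05 each gave 1. Leaving out 1 library gave 0 to 6 there (0.189% to 26.0%). In KDAC6H611A against WT (2, with 12.3% of all genes), DESeq2 gave 4 (15.8%), total count only 1 (6.2%) and a fit of all 6 groups 1 (11.3%). An adjusted p below 0.05 gave 5 there, an absolute log2 fold change of at least 1 gave 1, and leaving out 1 library gave 1 to 4 (7.48% to 19.4%). In KDAC8H143A against WT (7, with 58.5%), the GC content and length correction (48.8%) gave 3, with or without the replicate block, and the fold limit 2. The fit of all 6 groups gave 4 with Tubastatin A (7; 24.9% of all genes against 57.9%) and 5 with PCI-34051 (9; 23.5% against 51.1%), and the fold limit 1 in each. KDAC6H611A against KDAC6H216A (1, with 9.93%) gave 2 with DESeq2 (16.7%), 2 with the GC content and length correction (10.3%) and 1 to 4 without 1 library (5.1% to 19.5%). Tubastatin A against PCI-34051 (1, with 5.65%) gave 2 with DESeq2 (7.66%), 0 with total count only (5.61%) and 0 to 2 without 1 library (2.15% to 6.13%). Without 1 library, PCI-34051 against KDAC8H143A (5, with 58.2%) gave 3 to 7 (46.9% to 65.6%). Tubastatin A against KDAC6H611A (3, with 34.9%) then gave 1 to 4 (20.9% to 43.2%).

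Sign changes in KDAC6H216A were CHAC1 at 0.067 with total count only and 0.00066 with all 6 groups, and PHGDH at 0.16 with total count only, 0.032 with no filter, 0.090 with all 6 groups, 0.047 with the GC content and length correction and 0.044 with that correction and the block. SESN2 in KDAC6H611A was at -0.0022 with the correction and -0.0056 with the block added. In KDAC8H143A the correction, without and with the block, gave -0.278 and -0.280 for ATF4, -0.20 and -0.21 for TRIB3, -0.17 and -0.18 for CHAC1, -0.027 and -0.037 for PHGDH and -0.039 and -0.042 for XBP1, and XBP1 was at -0.013 without mitochondrial rRNA and small RNA genes. SESN2 was at 0.24 (total count only) and 0.011 (all 6 groups) with Tubastatin A, and at 0.34, 0.056 and, with no filter, 0.040 with PCI-34051. ASNS in PCI-34051 against KDAC8H143A was at -0.014 with the correction. Leaving out 1 library gave ranges across 0 for SESN2 (-0.017 to 0.073), PSAT1 (-0.028 to 0.20) and PHGDH (-0.035 to 0.044) in KDAC6H216A, DDIT3 (-0.050 to 0.11), TRIB3 (-0.19 to 0.023) and PSAT1 (-0.23 to 0.015) in KDAC6H611A, XBP1 (-0.0060 to 0.086) in KDAC8H143A and SESN2 (-0.13 to 0.0062) with PCI-34051; none of these passed the threshold with all libraries.

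The labels' replicate numbers did not pair the libraries. Deviations of same-numbered libraries correlated at -0.185 to 0.301, and in no comparison did every pair exceed 0.1. With the replicate block, 0, 2, 7, 7 and 9 genes were called against WT cells, as without it, and 1, 1, 4 and 2 in the direct comparisons, against 1, 1, 5 and 3; DDIT4 in Tubastatin A against KDAC6H611A was at -0.55 (adjusted p = 0.0116). The groups of 3 and 4 libraries limit small changes, and for KDAC8H143A and the inhibitors the low mitochondrial rRNA and the group cannot be told apart.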
